A study of Homo sapiens with 12 samples.

Results

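The comparison described here asks, gene by gene, whether the recovery of an RNA with HuR relative to its level in the cell differed between wild-type (WT) HuR and the SUMOylation mutant K120/182R. It takes the log2 ratio of precipitate to input in the mutant line and subtracts the same ratio in the WT line. It draws on all 12 of the 12 libraries of the study, which form 4 groups of 3. The cells were HuH-7, an established human hepatoma line. One group of cells stably overexpressed WT HuR and the other stably expressed HuR with both lysines replaced by arginine. From each line, RNA was sequenced after immunoprecipitation of V5-tagged HuR (RNA immunoprecipitation, RIP) and from the input. The precipitates are called WT RIP and mutant RIP below, and the matching total RNA WT input and mutant input. The column headers of all 12 libraries also carry the word DMSO, which the labels do not describe, so it is shared by every group. Cells were kept for at most 20 passages. The labels do not give the promoter of the tagged gene, whether each line is a clone or a pool, whether the cells' own HuR was still present, or whether replicates were separate cultures. The p-values thus rest on variation among libraries of a group that may be technical only. A precipitate from cells without the tag is not analysed here.

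HuR, encoded by ELAVL1, is an RNA-binding protein that binds AU-rich and U-rich stretches, many of them in the 3′ untranslated regions (3′UTRs) of mRNAs. It is best known for stabilising its target mRNAs and for moving between nucleus and cytoplasm. In SUMOylation a lysine of the protein is joined covalently to SUMO, a ubiquitin-like modifier, and replacing the lysine by arginine keeps the charge but removes the site of attachment. In liver and hepatoma cells HuR has been studied for its part in proliferation and differentiation.

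The pair of mutated positions is shown first, because the K120/182R name refers to them. The lines give the human reference coding sequence around each lysine codon of ELAVL1 (GRCh37, minus strand, 326 codons), 5′ to 3′, with the lysine codon in capitals. Codon 120 lies in exon 4 of 6 at chr19:8038679-8038681 and codon 182 in exon 5 of 6 at chr19:8032559-8032561. The sequences of the transgenes are not used here.
ELAVL1 codon 120: accatgacccagAAGgacgtagaagac
ELAVL1 codon 182: cccatcacagtgAAGtttgcagccaac

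Gene-level counts totalled 31774994 to 73149117 per library. The RNA that entered library preparation was 16 to 77 ng for a precipitate and 250 ng for an input, a gap that the labels give for both lines. The amount in each precipitate is not given, so an effect of amount cannot be told apart from one of the line. The 14 hepatocyte markers were all measured, with summed levels of 12210 to 14190 CPM (counts scaled by the effective library size) in WT input and 9702 to 10830 in mutant input. Most of this sum was AFP, with a mean of 8337 CPM in WT input and 5127 CPM in mutant input. ALB went the other way, with means of 661.8 and 785.4 CPM. Over the 14 markers the median log2 difference between the inputs was −0.09. Of 12 immune markers, 9 stayed under 1 CPM in all 12 libraries, as did 7 of 11 stromal and endothelial markers. The summed hepatocyte markers were 6343 to 6546 CPM in WT RIP and 4022 to 4561 CPM in mutant RIP, with AFP at means of 4522 and 2679 CPM. The median log2 difference of the 14 markers between the precipitates was −0.27, and their part in the results below was not tested. In such bulk libraries fewer cells of a kind and less RNA per cell cannot be told apart.

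ELAVL1 (ENSG00000066044, chr19:8023457-8070543, minus strand) stood at 37.97, 33.01 and 32.46 CPM in WT RIP libraries 1 to 3 and at 31.6, 25.2 and 24.9 CPM in mutant RIP. In the inputs it stood at 64.2, 54.1 and 56.4 CPM in the WT line and at 52.7, 48.0 and 44.4 CPM in the mutant line. The 3 mutant precipitates were each below the 3 WT precipitates, and the mutant inputs were each below the WT inputs. Neither gap passed edgeR's quasi-likelihood F-test, with −0.34 between the precipitates (adjusted p = 0.0561) and −0.27 between the inputs (adjusted p = 0.140). The enrichment of ELAVL1 was −0.76 in the WT line and −0.83 in the mutant line, so the precipitates were below the inputs in both. The difference of enrichments was −0.07 ± 0.18 (log2, standard error) with a 95% interval of −0.43 to 0.29, and it did not pass edgeR's quasi-likelihood F-test (adjusted p = 0.915). With total library size as the scale the value was 0.197. Reads from the tagged gene and from the cells' own ELAVL1 are counted together.

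Of 22984 genes tested, 15 had a higher enrichment in the mutant line than in the WT line at a Benjamini-Hochberg adjusted p under 0.05 (0.0653% of genes tested), and 0 had a lower one. Some of the 15 share exon bases with each other, as TSNAX with TSNAX-DISC1 and GOSR2 with ENSG00000262633, so they are not 15 separate loci. The 15 include PAK1IP1, CCS, GOSR2, EMC2, HAT1, SKAP2, DYNC1LI1, TSNAX, LRRC69 and the long noncoding RNA LINC02484, with differences of 0.89 to 1.47 on the log2 scale over all 15. The named genes act in membrane traffic, chromatin, copper handling, signalling and RNA binding. At an unadjusted p under 0.05, 1747 genes were higher (7.6%) and 1258 lower (5.47%). DESeq2's Wald test on the same counts called 379 higher (1.65%) and 55 lower (0.239%), among them 14 of the 15, with no adjusted p given for LRRC69. In each of the 15 genes, the 3 mutant precipitates lay above the 3 WT precipitates when each was set against the mean of its own line's inputs. The same separation was found in 18.9% of all genes tested, and the opposite one in 14.4%.

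**Figure D1:**
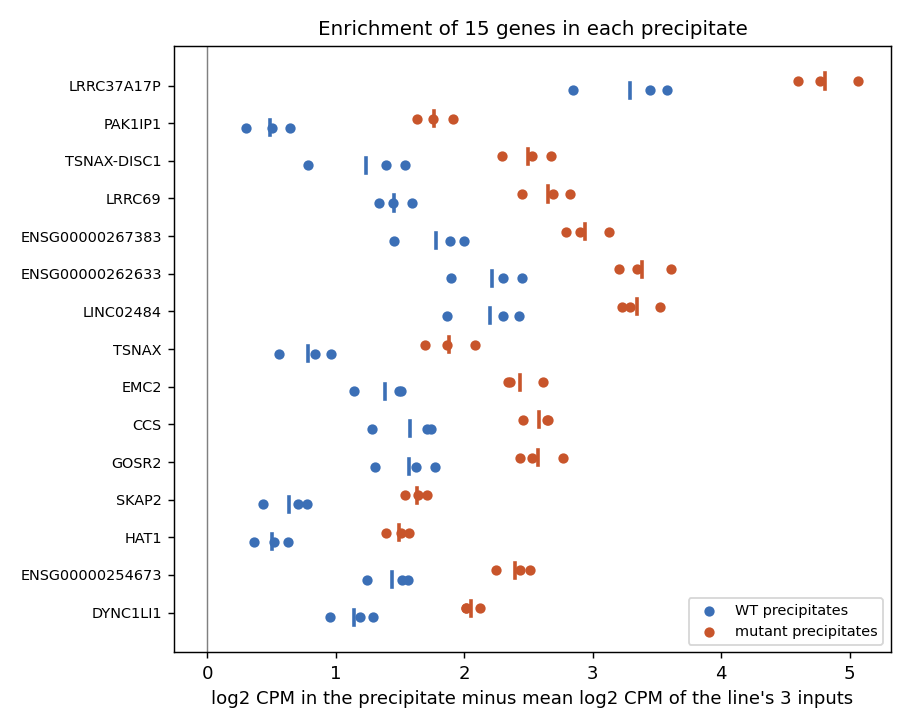
Enrichment of the 15 called genes in each precipitate, as log2 CPM in the precipitate minus the mean log2 CPM of the 3 inputs of the same line (x axis). Points are libraries, blue for WT and orange for mutant, and short bars are means of 3. In every gene the 3 mutant points lie to the right of the 3 WT points.

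The calls lay close to the threshold. The smallest adjusted p was 0.0115, for PAK1IP1, and the others were 0.0369 or 0.0424. Leaving out a single library changed the count of 15 higher genes to 0 without WT RIP 1 or mutant RIP 3. It became 1 without mutant RIP 2, WT input 2 or mutant input 1, in each case a gene of the 15. Without WT input 1 it was also 1, but a gene outside the 15. Of the 2 genes called without mutant input 2 and the 7 without WT RIP 2 all were among the 15, and of the 5 without mutant input 3 there were 3. The count rose to 18 without mutant RIP 1, 55 without WT input 3 and 57 without WT RIP 3, with all 15 among them. The differences of the 15 genes lay between 0.78 and 1.61 in these fits. The genes were chosen by their values in the same libraries, so their sign could hardly turn and this is no separate check.

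**Figure D2:**
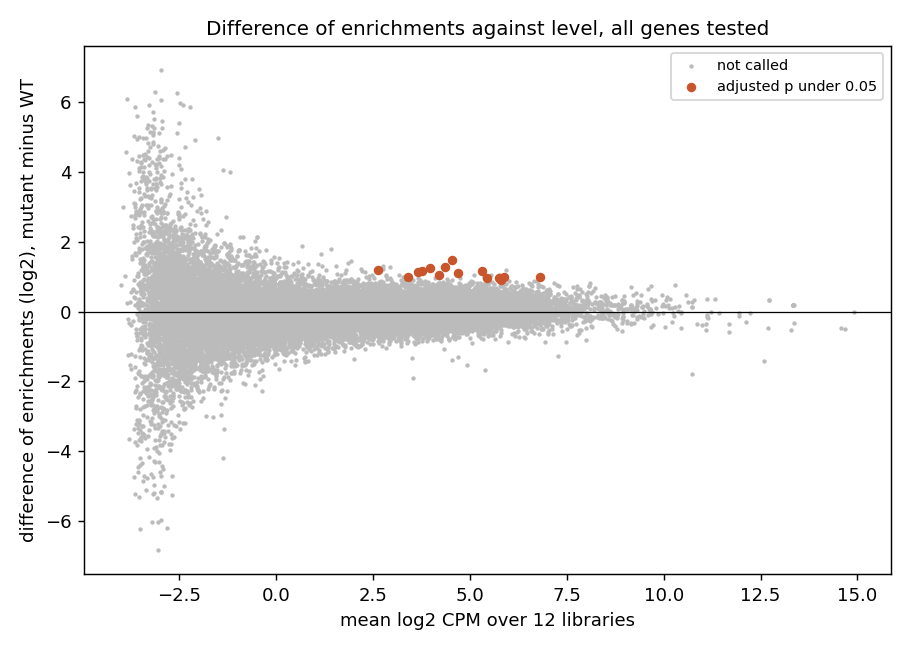
Difference of enrichments (mutant minus WT, log2; y axis) against the mean log2 CPM over the 12 libraries (x axis) for the 22984 genes tested. Orange points are the 15 genes with an adjusted p under 0.05, all above 0, and grey points are the other genes, which spread widely at low levels.

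How far the data could show a difference depended on level. Among 11144 genes with a mean log2 CPM of at least 2, the 95% interval of the difference lay within 1 log2 unit on either side of 0 for 9988 genes (89.63%), with a median distance of 0.41 from the estimate to either bound. Below that level the same held for 1949 of 11840 genes (16.46%), with a median distance of 1.27. A gene that did not pass the test is therefore not shown to be bound alike by both forms of HuR.

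Genes of membrane traffic and the secretory pathway were GOSR2, EMC2 and DYNC1LI1. GOSR2 (ENSG00000108433, chr17:45000441-45052890, plus strand) encodes a SNARE protein of the Golgi. It stood at 75.0, 93.5 and 103.7 CPM in WT RIP and at 145.6, 155.6 and 183.9 CPM in mutant RIP. In the inputs it stood at 31.0, 28.9 and 30.9 CPM in the WT line and at 26.02, 30.75 and 24.50 CPM in the mutant line. The precipitates of the lines did not overlap, whereas the inputs did. Its enrichment rose from 1.58 in the WT line to 2.58 in the mutant line, a difference of 0.99 ± 0.19 (1.99-fold, adjusted p = 0.0369). GOSR2 shares 5.123% of its exon bases with ENSG00000262633, also among the 15. ENSG00000262633 stood at 59.77, 79.37 and 87.54 CPM in WT RIP and at 131.7, 145.2 and 174.3 CPM in mutant RIP. Its inputs were at 16.47, 15.03 and 16.62 CPM in the WT line and at 14.04, 16.58 and 12.48 CPM in the mutant line. How far the rise of GOSR2 rests on reads of the shared bases was not tested.

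EMC2 (ENSG00000104412, chr8:109455830-109501425, plus strand) encodes a subunit of the endoplasmic reticulum membrane protein complex, which inserts membrane proteins. Its levels were 24.6, 31.3 and 31.7 CPM in WT RIP and 40.6, 41.0 and 48.8 CPM in mutant RIP. In the inputs they were 13, 10.76 and 9.755 CPM in the WT line and 7.034, 8.396 and 8.538 CPM in the mutant line. The mutant line was thus higher in every precipitate and lower in every input. The enrichment rose from 1.38 to 2.44, by 1.06 ± 0.20 (2.08-fold, adjusted p = 0.0369).

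DYNC1LI1 (ENSG00000144635, chr3:32567466-32612350, minus strand) encodes a light intermediate chain of cytoplasmic dynein, the motor that carries cargo toward the minus ends of microtubules. It was measured at 69.1, 81.2 and 87.4 CPM in WT RIP against 115.6, 115.3 and 124.1 CPM in mutant RIP. Its inputs were at 36.8, 36.6 and 33.5 CPM in the WT line against 25.4, 29.6 and 30.8 CPM in the mutant line. Neither the precipitates nor the inputs of the lines overlapped. The enrichment rose from 1.15 to 2.05, by 0.89 ± 0.17 (1.86-fold, adjusted p = 0.0369).

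Among genes of the nucleus, PAK1IP1 had the smallest p of all genes tested. PAK1IP1 (ENSG00000111845, chr6:10695205-10710015, plus strand) encodes a nucleolar protein that binds the kinase PAK1 and takes part in ribosome biogenesis. WT RIP held 17.97, 22.86 and 20.74 CPM and mutant RIP 40.1, 43.8 and 48.7 CPM of it. WT input held 16.89, 14.12 and 12.95 CPM and mutant input 11.2, 13.9 and 13.9 CPM. The precipitates were well apart and the inputs overlapped. Its enrichment rose from 0.49 to 1.76, by 1.28 ± 0.19 with a 95% interval of 0.89 to 1.67 (2.43-fold, adjusted p = 0.0115). It passed the test in 19 of 23 processing alternatives, more than any other of the 15 genes.

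HAT1 (ENSG00000128708, chr2:172778958-172848600, plus strand) encodes the acetyltransferase that modifies newly made histone H4. It stood at 47.3, 52.6 and 56.8 CPM in WT RIP and at 66.8, 72.6 and 75.8 CPM in mutant RIP. Its inputs were 39.0, 38.9 and 32.5 CPM in the WT line and 20.9, 26.8 and 29.5 CPM in the mutant line. The lines moved apart in opposite directions, up in the precipitates and down in the inputs. The difference of enrichments was 0.97 ± 0.18 (1.96-fold, adjusted p = 0.0369), made of 0.46 between the precipitates and −0.51 between the inputs.

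CCS (ENSG00000173992, chr11:66360624-66373490, plus strand) encodes the copper chaperone that loads superoxide dismutase 1. It was at 133.5, 179.5 and 184.2 CPM in WT RIP and at 301.8, 344.1 and 345.0 CPM in mutant RIP. Its inputs hardly varied, with 53.3, 52.8 and 58.7 CPM in the WT line and 56.0, 52.8 and 56.0 CPM in the mutant line. Here the difference lay between the precipitates. The enrichment rose from 1.59 to 2.59, by 0.996 ± 0.188 (1.99-fold, adjusted p = 0.0369), with a difference of −0.0006 between the inputs.

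SKAP2 (ENSG00000005020, chr7:26706687-27034858, minus strand), an adaptor of Src-family kinase signalling, had the opposite make-up. It stood at 15.02, 18.21 and 19.04 CPM in WT RIP and at 13.1, 14.1 and 14.8 CPM in mutant RIP. Its inputs were 11.03, 10.79 and 11.51 CPM in the WT line but 4.74, 4.71 and 4.04 CPM in the mutant line. The mutant libraries were lower in both kinds of RNA, and much more so in the inputs. The enrichment rose from 0.65 to 1.64, by 0.99 ± 0.19 (adjusted p = 0.0369), while the difference between the precipitates alone was −0.32 (adjusted p = 0.0817) and that between the inputs −1.31 (adjusted p = 5.26e-07). With the trend of the counts with transcript GC content removed, SKAP2 was at 0.74 and no longer passed (adjusted p = 0.0809), while EMC2 at 0.76 and DYNC1LI1 at 0.66 did. SKAP2 passed in 10 of the 23 alternatives.

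**Figure D3:**
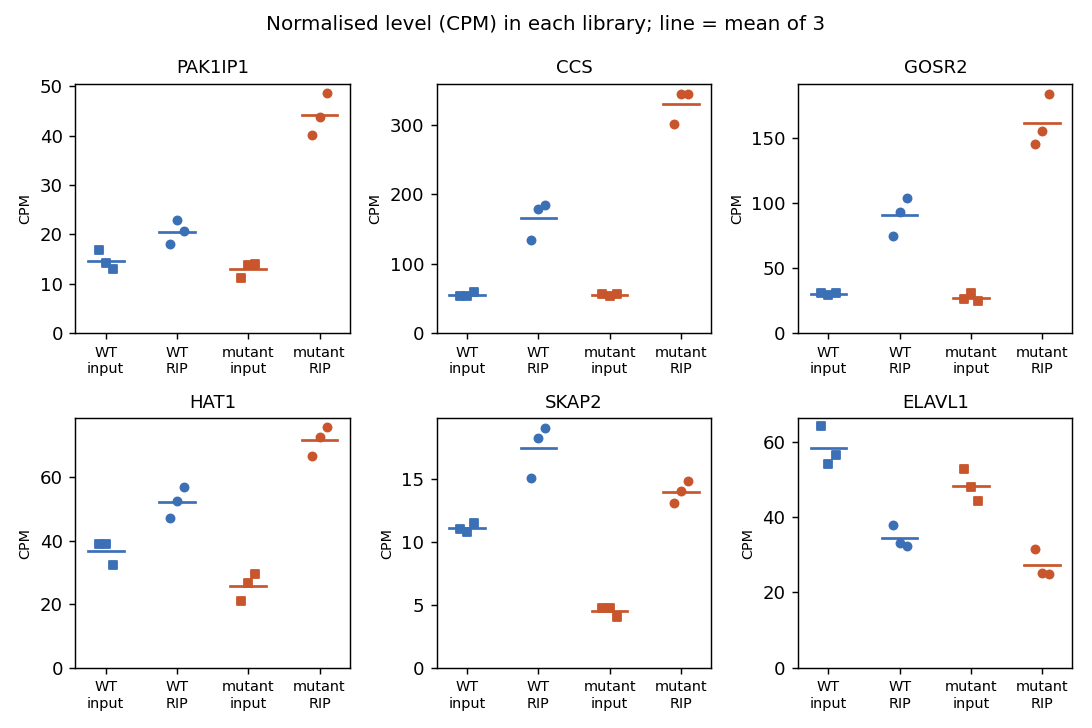
Level in CPM (y axis, from 0) of 5 called genes and ELAVL1 in each library of the 4 groups (x axis). Squares are inputs, circles are precipitates, blue is the WT line, orange the mutant line, and lines are means of 3. CCS and GOSR2 differ between the precipitates, SKAP2 mostly between the inputs and HAT1 in both, and the lines keep about the same ratio of precipitate to input for ELAVL1.

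LRRC69 and LINC02484 completed the genes that share under 10% of their exon bases with another gene. LRRC69 (ENSG00000214954, chr8:92114060-92231485, plus strand) encodes a leucine-rich repeat protein and was the least abundant of these. It was at 8.26, 7.67 and 9.18 CPM in WT RIP and at 16.18, 19.13 and 20.99 CPM in mutant RIP, with inputs of 3.19, 3.20 and 2.68 CPM in the WT line and 2.30, 3.17 and 3.46 CPM in the mutant line. The inputs overlapped and the precipitates did not. The difference of enrichments was 1.18 ± 0.23 (adjusted p = 0.0424). LINC02484 (ENSG00000248685, chr4:34121712-34336973, minus strand), a long intergenic noncoding RNA, stood at 19.01, 25.81 and 28.14 CPM in WT RIP and at 41.59, 43.37 and 50.95 CPM in mutant RIP. Its inputs were at 5.39, 5.87 and 4.44 CPM in the WT line and at 3.67, 5.02 and 4.63 CPM in the mutant line, a difference of enrichments of 1.13 ± 0.22 (adjusted p = 0.0424).

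The remaining 6 of the 15 share at least 10% of their exon bases with another gene. Their reads cannot be assigned with the same certainty, nor can those of GOSR2, as given above. TSNAX (ENSG00000116918, chr1:231664287-231702270, plus strand) encodes translin-associated factor X, the partner of the RNA- and DNA-binding protein translin. TSNAX was at 27.7, 36.6 and 33.6 CPM in WT RIP, at 45.7, 51.4 and 59.8 CPM in mutant RIP, at 20.0, 20.5 and 16.1 CPM in WT input and at 13.7, 13.4 and 15.2 CPM in mutant input. Neither precipitates nor inputs overlapped. Its enrichment rose by 1.098 ± 0.190 (2.14-fold, adjusted p = 0.0369), with 11.5% of its exon bases shared. The readthrough gene TSNAX-DISC1, which joins it to its neighbour and shares 78.3% of its bases, rose by 1.24 ± 0.23 (adjusted p = 0.0369). DISC1 itself, a scaffold protein gene, had a value of 1.03 ± 0.53 that did not pass (adjusted p = 0.413).

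A further cluster of calls lay on chromosome 17 next to GOSR2. The pseudogene LRRC37A17P (chr17:45094559-45131935, 69.8% shared) had the highest fitted difference of the 15. It stood at 46.5, 70.7 and 77.5 CPM in WT RIP and at 123.1, 138.4 and 170.0 CPM in mutant RIP, against 6.68, 6.70 and 5.96 CPM in WT input and 3.82, 6.29 and 5.34 CPM in mutant input. The precipitates did not overlap and the inputs did. LRRC37A17P rose by 1.47 ± 0.26 (2.77-fold, adjusted p = 0.0369). ENSG00000262633 (chr17:45000499-45127298), whose exon bases are all shared with GOSR2, LRRC37A17P and others, rose by 1.15 ± 0.20 (adjusted p = 0.0369). The related copies LRRC37A, LRRC37A2 and LRRC37A3 had values of 1.04 ± 0.29, 1.05 ± 0.26 and 0.82 ± 0.24, none of which passed (adjusted p = 0.147, 0.111 and 0.147). Reads of these near-identical copies can be split between them.

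The last pair are transcripts without a symbol. ENSG00000254673 (chr8:42873567-42932477), with 100% of its exon bases shared, lies over FNTA, which encodes the alpha subunit of protein farnesyltransferase. It rose by 0.95 ± 0.18 (adjusted p = 0.0369), and FNTA had a value of 0.78 ± 0.18 that did not pass (adjusted p = 0.0837). ENSG00000267383 (chr19:20233378-20432114, minus strand), a long noncoding RNA that shares 12.1% of its exon bases with other genes on either strand, among them ZNF90 on the opposite strand, rose by 1.16 ± 0.22 (adjusted p = 0.0369). ZNF90, a zinc finger gene, had a value of 0.29 ± 0.30 (adjusted p = 0.733).

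The 4 simple comparisons behind the difference share its libraries, so their values for the 15 genes are set side by side only. The enrichment in the WT line ran from 0.49 for PAK1IP1 to 3.33 for LRRC37A17P, and that in the mutant line from 1.48 for HAT1 to 4.80 for LRRC37A17P. Between the precipitates the values ran from −0.32 for SKAP2 to 1.16 for LRRC69, and between the inputs from −1.31 for SKAP2 to −0.0006 for CCS. Over all genes tested, 50.9% passed the test between WT precipitate and input (25.6% up and 25.4% down) and 57% in the mutant line (29% and 28%). The mutant and WT precipitates differed in 19.6% of genes (9.87% up and 9.76% down in the mutant), and the inputs in 17.5% (7.47% and 10%).

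HuR is known for binding U-rich and AU-rich sequence, so the 3′UTRs of the called coding genes were searched on the transcript strand for the core of AU-rich elements, ATTTA, for its longer form, which is TATTTAT, and for an uninterrupted run of U, written here as TTTTTTT. Each match to the longer form also counts as a match to the core. The shares of called genes with these letters rest on few genes. Of the 9 called coding genes with a 3′UTR of at least 50 bases, 6 held ATTTA, against 74.03% of 13628 coding genes tested. TATTTAT was found in 3 of 9 against 36.12%, and TTTTTTT in 6 of 9 against 52%. EMC2 held 11 matches to ATTTA and TSNAX 18, whereas the 3′UTR of CCS, 164 bases long, held none of the 3 motifs. A match is a description of the reference sequence and not a site of binding. The median 3′UTR length was 825 bases in the called genes and 1442 bases in all, and the shares above are not corrected for length. Per kilobase of 3′UTR, the median density of ATTTA was 2.994 in the called genes and 1.704 in all coding genes tested. For TTTTTTT the median densities were 1.853 and 0.3678. The median GC content of the 3′UTR was 34.26% in the called genes and 42.43% in all, and the densities are not corrected for it.

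Of the 9 called coding genes with a 3′UTR, all but CCS and GOSR2 had a transcript GC content below the median of coding genes. The other called coding genes were at 44.46% (ENSG00000254673), 50.64% (ENSG00000262633) and 50.1% (TSNAX-DISC1). The median transcript GC of the 9 was 38.48% against 47.67% in all coding genes tested, with 60.87% for CCS and 48.3% for GOSR2. The same direction ran through the coding genes as a whole, split evenly into 3 classes by transcript GC, where the median difference was 0.20 in the lowest class, 0.003 in the middle and −0.18 in the highest. In the WT line the median enrichment ran over these classes from 0.18 through −0.07 to −0.66, and in the mutant line from 0.39 through −0.07 to −0.81. With the GC trend of each library removed, 29 genes were higher and 6 lower, among them 14 of the 15. Grouped by ATTTA matches in the 3′UTR, the medians were −0.09 with none, −0.04 with 1 or 2 and 0.09 with 3 or more.

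On the lower side no gene passed edgeR's test, against 55 with DESeq2. The genes that follow were chosen after their values were seen, as those among the smallest p. SLC7A5, a transporter of large neutral amino acids, stood at 15.1, 16.3 and 15.3 CPM in WT RIP and at 16.2, 11.1 and 12.1 CPM in mutant RIP, with inputs of 54.4, 66.0 and 64.3 CPM in the WT line and 114.2, 86.3 and 90.5 CPM in the mutant line. Its precipitates overlapped and its inputs did not, with a difference of enrichments of −0.89 ± 0.20 (adjusted p = 0.0692). PLAGL2, a zinc finger transcription factor, showed the other make-up, with 50.7, 42.8 and 44.3 CPM in WT RIP, 34.3, 26.8 and 30.5 CPM in mutant RIP, and overlapping inputs between 58.8 and 67.0 CPM. The value for PLAGL2 was −0.66 ± 0.17 (adjusted p = 0.108).

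MYORG, a glycosidase, was likewise at 11.25, 11.08 and 11.96 CPM in WT RIP and at 6.946, 7.998 and 6.446 CPM in mutant RIP, and its inputs overlapped between 23.9 and 26.6 CPM (−0.65 ± 0.17, adjusted p = 0.110). Further values were −0.80 ± 0.19 for TSKU, a secreted leucine-rich proteoglycan (adjusted p = 0.0924), and −0.91 ± 0.22 for LSR, a lipoprotein receptor (adjusted p = 0.097). STIM1, the calcium sensor of the endoplasmic reticulum, was at −0.79 ± 0.20 (adjusted p = 0.103), and FILIP1L at −0.73 ± 0.19 (adjusted p = 0.109).

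Gene lists for HuR biology, SUMOylation, senescence and liver functions were described by counts and medians. In each of the 29 lists, 0 members passed edgeR's test in either direction, so the counts at an unadjusted p under 0.05 are given. Over all genes tested the shares at that threshold were 7.6% higher and 5.47% lower. Among protein-coding genes, of which most lists consist, they were 9.95% and 6.18%, and lists of coding genes are to be read against these. The median difference over all genes tested was 0.0036. With total library size as the scale that median moved to 0.25, so a list median between −0.25 and 0 changes its sign there and values are relative to the typical gene.

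Known HuR target mRNAs had 4 higher and 5 lower of 43, with a median of 0.03. Their median enrichment was −0.25 in the WT line and −0.20 in the mutant line, against −0.13 and −0.11 over protein-coding genes. The list as a whole was thus not enriched over input in either line. CCNB1, cyclin B1 of the entry into mitosis, had a value of 0.68 ± 0.18 (95% interval 0.32 to 1.05, adjusted p = 0.109). It was at 52.97, 71.05 and 65.06 CPM in WT RIP and at 89.2, 90.4 and 87.4 CPM in mutant RIP, and its inputs lay between 59.7 and 62.7 CPM in the WT line and between 47.4 and 60.6 CPM in the mutant line. The mutant precipitates were above the WT precipitates and the inputs overlapped. For the apoptosis inhibitor MCL1 the value was 0.16 ± 0.16 (adjusted p = 0.728), and for ACTB, cytoskeletal actin, −0.34 ± 0.23 (adjusted p = 0.56). The enrichment of MCL1 was 0.23 in the WT line and 0.39 in the mutant line, and that of ACTB −1.74 and −2.09. Other AU-rich element binding proteins had 4 higher and 4 lower of 24, with a median of 0.02. The SUMO pathway had 4 higher and 0 lower of 25, with a median of 0.07, led by UBA2, a subunit of the SUMO-activating enzyme, at 0.62 ± 0.17 (adjusted p = 0.126).

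The p53 and cell cycle arrest list had 2 higher and 7 lower of 32, with a median of −0.05. CDKN1A, which encodes the cyclin-dependent kinase inhibitor p21, was at 5.20, 5.77 and 5.85 CPM in WT RIP and at 8.23, 9.79 and 7.57 CPM in mutant RIP. Its inputs were at 5.24, 6.60 and 5.85 CPM in the WT line and at 16.99, 12.63 and 14.22 CPM in the mutant line. CDKN1A was thus higher in all mutant libraries, by 1.31 between the inputs and 0.61 between the precipitates. The difference of enrichments was −0.70 ± 0.21 (95% interval −1.14 to −0.26) and did not pass (adjusted p = 0.153). Senescence-associated secreted factors had 0 higher and 5 lower of 25, with a median of −0.40, and immediate early genes 0 higher and 7 lower of 26, with a median of −0.33. The medians of the secreted factors were 0.03 between the precipitates and 0.34 between the inputs, and those of the immediate early genes 0.14 and 0.54.

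Genes of proliferation leaned the other way at the unadjusted threshold. S phase genes had 7 higher and 0 lower of 34 (median 0.18), and genes of G2 and mitosis 8 higher and 2 lower of 36 (median 0.13). For S phase the medians were −0.07 between the precipitates and −0.30 between the inputs. PCNA, the sliding clamp of DNA replication, had a value of 0.26 ± 0.18 and MCM7, of the replicative helicase, 0.31 ± 0.19, neither of which passed (adjusted p = 0.574 and 0.523). UBE2C, a ubiquitin-conjugating enzyme of mitosis, was at −0.21 ± 0.16 (adjusted p = 0.626), or 0.0347 with total library size.

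The aminoacyl-tRNA synthetases, which charge tRNAs with their amino acids, had 5 higher and 0 lower of 20, with values of 0.05 to 0.83 and a median of 0.25. RARS1, the arginyl enzyme, was at 94.5, 112.1 and 134.4 CPM in WT RIP and at 222.7, 247.8 and 255.3 CPM in mutant RIP, against 28.5, 28.9 and 30.4 CPM in WT input and 31.33, 37.95 and 35.52 CPM in mutant input. Neither its precipitates nor its inputs overlapped between the lines. The difference of enrichments of RARS1 was 0.83 ± 0.19 (adjusted p = 0.0783), and that of the isoleucyl enzyme IARS1 0.52 ± 0.17 (adjusted p = 0.176). Medians of the synthetases were 0.24 between the precipitates and −0.08 between the inputs. Translation factors had 5 higher and 0 lower of 38 (median 0.10), and the ribosomal proteins 0 and 0 in 46 genes of the large subunit (median 0.07) and in 32 of the small one (median 0.12).

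Liver functions and redox genes showed small medians. Hepatocyte secreted and metabolic genes had 0 higher and 3 lower of 44 (median −0.12), and ALB, serum albumin, had a value of −0.13 ± 0.20 (adjusted p = 0.842), or 0.12 with total library size. Cholesterol and fatty acid synthesis had 4 higher and 2 lower of 32 (median 0.07), although their medians were −0.67 between the precipitates and −0.80 between the inputs. Antioxidant and metallothionein genes had 2 higher and 1 lower of 26. GCLM, the modifier subunit of the enzyme that starts glutathione synthesis, was at 66.2, 80.9 and 84.8 CPM in WT RIP and at 65.3, 68.3 and 70.0 CPM in mutant RIP, with inputs of 47.8, 49.9 and 38.3 CPM in the WT line and 21.8, 20.1 and 24.4 CPM in the mutant line. Its precipitates overlapped and its inputs did not, with a difference of 0.85 ± 0.18 (95% interval 0.48 to 1.22, adjusted p = 0.0585).

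**Figure D4:**
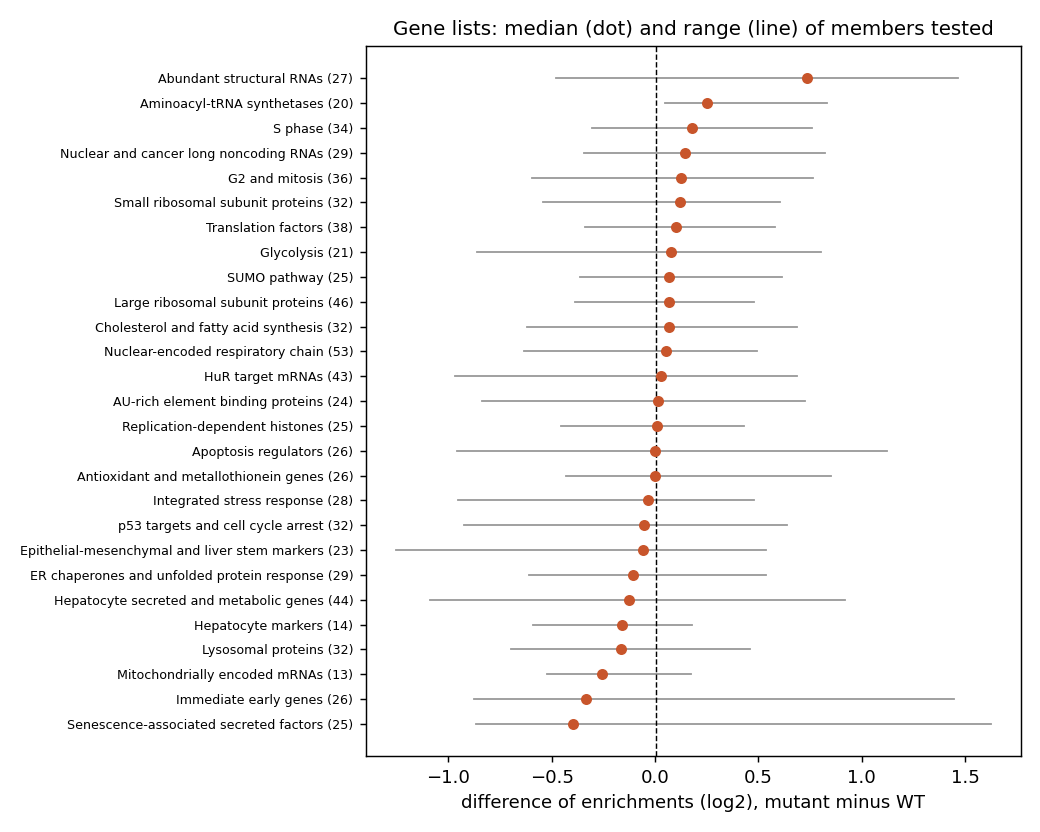
Median (dot) and range (line) of the difference of enrichments (mutant minus WT, log2; x axis) for the lists with at least 10 members tested (y axis, number tested in parentheses). The dashed line is the median of all genes tested, 0.0036. Most medians lie near it, and the abundant structural RNAs, at 0.73, stand to the right with a wide range.

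The number of calls varied with the processing. With the log2 fold limit of 0.5 in place of 0 no gene was called in either direction, and with at least 50 counts in 3 libraries 1 gene was. Without any filter on low counts 119 genes were higher and 66 lower. Over these 3 settings the differences of the 15 genes ran from 0.89 to 1.48. The fold limit leaves the estimates as they are and the filters can hardly move them, so this range is no check on them. The differences ran from 1.15 to 1.74 with total library size and from 0.66 to 1.49 with the GC trend removed.

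**Figure D5:**
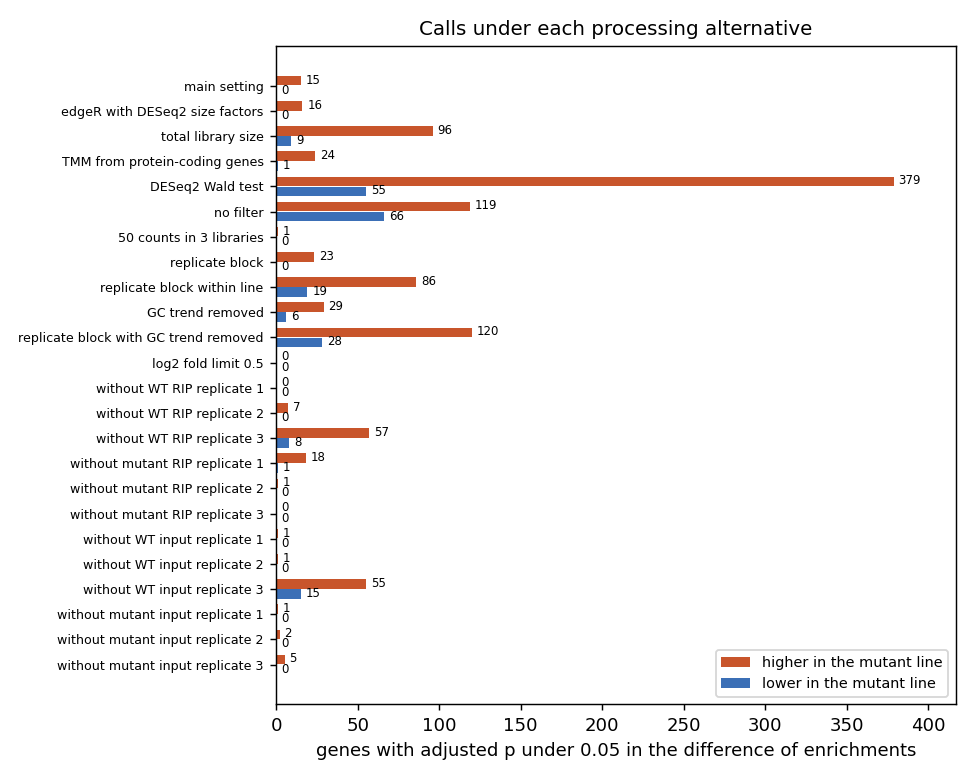
Genes with an adjusted p under 0.05 in the difference of enrichments (x axis, count) under the main setting and 23 alternatives (y axis), orange for higher and blue for lower in the mutant line. The count of higher genes runs from 0 to 379 and that of lower genes from 0 to 66.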

How the data were processed

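The deposited values are raw read counts per Ensembl gene, 1 file per library and not pooled. Per the submitters' processing notes, the tools were bcl2fastq 2.20.0.422, cutadapt, STAR 2.4.0j and featureCounts 1.6.4 with hg19. Libraries were stranded total RNA, per the labels. Which annotation and strand setting were used, and how multi-mapped reads were treated, is not given in the sources used here. Positions and names are from GENCODE 44 on GRCh37, which matched 55538 of 57773 identifiers, and the unmatched ones took at most 20.98% of the counts in any library. This share was 2.65% to 3.39% in the precipitates, 15.85% to 18.8% in WT input and 19.55% to 20.98% in mutant input.

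Counts were filtered with edgeR's filterByExpr (minimum count 10, minimum total 15) and scaled with TMM (trimmed mean of M values) factors. One robust quasi-likelihood fit in edgeR 4.0.16 (R 4.3.3, limma 3.58.1) held all 12 libraries, with 4 group coefficients and 8 residual degrees of freedom. A gene was called at an adjusted p (Benjamini-Hochberg) under 0.05. Standard errors were derived from the F statistic, and CPM use the TMM library sizes. The fit was run on counts simulated with its own estimates of spread. Of planted changes in genes with a mean log2 CPM of at least 2, it found 32 of 50 at 1 log2 unit and 1 of 50 at 0.5. Of its 140 calls, 8 were false. Counts drawn from the fit's own model cannot show that it suits these libraries. Replicates differed by more than sampling noise (chi-square per degree of freedom 13.6 to 203).

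By the rule for names, called genes needed a mean log2 CPM of at least 2, a symbol, a place off the Y chromosome and under 10% of exon bases shared with another gene, and 9 met it. ELAVL1 was added, as were, for each list with no called member, its 2 most abundant members, of which some are named. The other called genes, their overlapping neighbours and further list members were picked with their values in view. The members and the 29 lists were chosen with earlier results of these data known.

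Alternatives were DESeq2 1.42.0, other scalings, other filters, a fold limit, removal of the GC trend (loess span 0.5), replicate blocks and leaving out each library. Figures used Python 3.11.15 with matplotlib 3.10.9.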

Additional observations from a re-analysis of the deposited data

Results flagged for a closer look

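For 15 genes the test of the difference itself found unequal enrichment in the WT and mutant lines (edgeR's quasi-likelihood F-test, adjusted p of 0.0115 to 0.0424). The values of mutant minus WT on the log2 scale were 1.47 for LRRC37A17P, 1.28 for PAK1IP1, 1.24 for TSNAX-DISC1, 1.18 for LRRC69 and 1.16 for ENSG00000267383. They were 1.15 for ENSG00000262633, 1.13 for LINC02484, 1.098 for TSNAX, 1.06 for EMC2 and 0.996 for CCS. The lowest were 0.99 for GOSR2, 0.99 for SKAP2, 0.97 for HAT1, 0.95 for ENSG00000254673 and 0.89 for DYNC1LI1. In each gene the 3 mutant precipitates were above the 3 WT precipitates relative to their own inputs, as they were in 18.9% of all genes tested. The test chose the 15 genes on the same values, so this separation adds no support.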

How the results depend on the processing

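The count of 15 higher and 0 lower genes became 96 and 9 with total library size, 24 and 1 with TMM factors from coding genes, 379 and 55 with DESeq2, and 119 and 66 without a filter. It became 1 and 0 with at least 50 counts in 3 libraries, 29 and 6 with the GC trend removed, and 0 and 0 with a log2 fold limit of 0.5. DESeq2's size factors in edgeR gave 16 and 0. Leaving out 1 library gave 0 to 57 higher and 0 to 15 lower genes. Without WT RIP 1 the 15 genes had adjusted p of 0.0781 to 0.153, and without mutant RIP 3 of 0.0881 to 0.174. Of 18 same-numbered pairs of libraries, 8 had correlated deviations over 0.1 (range −0.521 to 0.612), as did 4 of the 6 pairs of precipitate and input within a line, so pairing by number was not established. As a hint toward pairing, 8 of 12 libraries correlated best with their own number. How many would do so without pairing was not worked out. Same-numbered precipitates of the lines were at 0.357, 0.612 and 0.044, but same-numbered inputs at −0.355, 0.163 and −0.521. Libraries of different numbers also correlated, with 0.605 for WT input 3 and mutant input 1. Mutant RIP 3 was at 0.42 with mutant input 3 and also with WT input 2. With the replicate number as a block 23 genes were higher and 0 lower, with a replicate block within line 86 and 19, and with the replicate block and the GC trend removed 120 and 28. The cause of these changes was not tested.

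With total library size the sign turned for ELAVL1 (0.197), CCN2 (0.0367), BTG1 (0.0311), ALB (0.12), UBE2C (0.0347), MALAT1 (0.0411) and NORAD (0.108). ELAVL1 was at 0.0049 without WT RIP replicate 1. None of these 7 genes passed the test in any of the 23 alternatives. The range of ELAVL1 over the 23 alternatives was −0.20 to 0.197. Over the same alternatives the median ran from 0.10 to 0.43 in the S phase genes, 0.07 to 0.38 in G2 and mitosis, 0.19 to 0.51 in the aminoacyl-tRNA synthetases, −0.52 to −0.17 in the secreted factors and −0.41 to −0.09 in the immediate early genes. Low counts limit the difference for most genes under a mean log2 CPM of 2.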

Other observations

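Further gene classes and lists had these values for the difference of enrichments, with 0 genes passing edgeR's test in each unless stated. Protein-coding genes held 12 of the 15 calls among 14004, long noncoding RNAs 2 among 4520 and pseudogenes 1 among 2617, with medians of 0.01, −0.02 and −0.05. Small nucleolar RNAs (snoRNAs), which guide the modification of other RNAs, had 23 higher and 3 lower of 284 at an unadjusted p under 0.05, with a median of 0.31. Small nuclear RNA genes had 10 higher and 0 lower of 135 (median 0.49), and small Cajal body RNAs 2 and 0 of 19 (median 0.17). Genes of miRNA precursors had 7 higher and 20 lower of 227, with a median of −0.24 that became 0.02 with total library size.

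The abundant structural RNAs had 2 higher and 0 lower of 27, with a median of 0.73 and values of −0.48 to 1.47. Their intervals were wide, since 2 of 27 lay within 1 log2 unit on either side of 0. The 13 mitochondrially encoded mRNAs had 0 in either direction (median −0.25), and the nuclear-encoded respiratory chain 7 higher and 1 lower of 53 (median 0.06), with CYCS, cytochrome c, at 0.25 ± 0.20. Glycolysis had 3 higher and 0 lower of 21 (median 0.08), with GAPDH at 0.20 ± 0.24. Lysosomal proteins had 1 higher and 5 lower of 32 (median −0.16), and the integrated stress response 1 and 4 of 28 (median −0.04), with its transcription factor ATF4 at −0.42 ± 0.18 (adjusted p = 0.307). Chaperones of the endoplasmic reticulum had 2 higher and 3 lower of 29 (median −0.11), and apoptosis regulators 1 and 3 of 26 (median 0.0008). Epithelial-mesenchymal and liver stem markers had 2 higher and 4 lower of 23 (median −0.06), and the replication-dependent histones 0 in either direction among 25 (median 0.01).

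Long noncoding RNAs of nucleus and cancer had 3 higher and 0 lower of 29 (median 0.14), with NORAD, a regulator of Pumilio proteins, at −0.14 ± 0.21 and MALAT1, whose exons overlap those of TALAM1, at −0.20 ± 0.22, values that became 0.108 and 0.0411 with total library size. The hepatocyte markers had 0 higher and 3 lower of 14 (median −0.16), the immune markers 0 in either direction among 7 (median −0.40) and the stromal and endothelial markers 0 among 4 (median 0.33).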
